A study of Homo sapiens with 12 samples.

Results

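Kinesins are motor proteins that use ATP to walk along microtubules or to take microtubules apart. The family was read on Affymetrix U133 Plus 2.0 arrays in a pair of human T-cell acute lymphoblastic leukaemia lines treated with SAHM1. Members were the genes measured by probe sets that carry exactly 1 gene symbol, where that symbol is KIF and a number, KIFC1, KIFC2, KIFC3 or KIFAP3. The rule found 46 of the 19775 genes on the arrays, read by 92 of 54675 probe sets. They were sorted by known role into 12 mitotic kinesins, 16 transport kinesins, 6 ciliary and hedgehog kinesins, 8 other kinesins and 4 antisense RNAs of kinesin loci, which are not motors. The listed kinesins KIF4B and KIF28P had no probe set of their own.

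KOPT-K1 and HPB-ALL are established lines, so each stands for 1 patient's leukaemia. Cultures of each line received SAHM1 at 20 µM or an equal amount of its vehicle DMSO for 24 hours, with 3 cultures and 3 arrays in each of the 4 groups. SAHM1 is a hydrocarbon-stapled peptide derived from mastermind-like, made to keep the NOTCH transcription complex from assembling. The labels name no other agent, and all cultures grew in RPMI medium with serum and antibiotics. P-values measure the spread between cultures of 1 experiment. Every deposited value was divided by its line's DMSO mean, so levels are lost: neither the order of kinesins by abundance nor the presence of T-cell markers could be read. Values below are log2 of these ratios, where 0 is the DMSO mean, and a response is the SAHM1 mean minus the DMSO mean ± its standard error. A gene was called when its adjusted p was under 0.05 (limma, Benjamini-Hochberg over all 19775 genes).

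In a dividing cell, mitotic kinesins push the spindle poles apart, trim microtubule ends, bring chromosomes to the cell's middle and build the bridge where cytokinesis takes place. Their mRNAs accumulate in G2 and mitosis and are kept low in resting cells by the DREAM repressor complex, so they are widely read as proliferation genes. Transport kinesins carry vesicles, mitochondria and other cargo in dividing and resting cells alike, and kinesin-2 motors also move material inside cilia.

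SAHM1 was followed by higher mitotic kinesin mRNA in HPB-ALL and by no called change of that class in KOPT-K1. In HPB-ALL 7 of 12 mitotic kinesins rose and 0 fell, where 4.96% of all genes were called higher and 4.38% lower. Their median response was 0.36, with a range of -0.02 to 0.56, beside -0.02 for all genes, and 11 of 12 responses were above 0, where 43.7% of all genes were. In KOPT-K1 0 of 12 were called in either direction, where 5.85% of all genes were called higher and 13.2% lower. At an unadjusted p under 0.05 limma gave 1 of 12, KIF22, and the KOPT-K1 class median was 0.06, with 7 of 12 responses above 0 beside 50.0% of all genes. None of the 16 transport kinesins was called in HPB-ALL (limma; at an unadjusted p under 0.05 0 were higher and 2 lower, KIF13A and KIFC2), and their median there was -0.02. Among the 8 other kinesins, KIF21A, KIF21B and KIF2A fell in KOPT-K1 and none was called in HPB-ALL. KIF2A also acts at spindle poles, so the count of 0 of 12 mitotic kinesins in KOPT-K1 depends on this sorting. These lists were described by counts and medians, and mitotic and transport kinesins were not tested against each other as lists. In bulk RNA, more cells in mitosis and more mRNA per cell cannot be told apart.

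**Figure D1:**
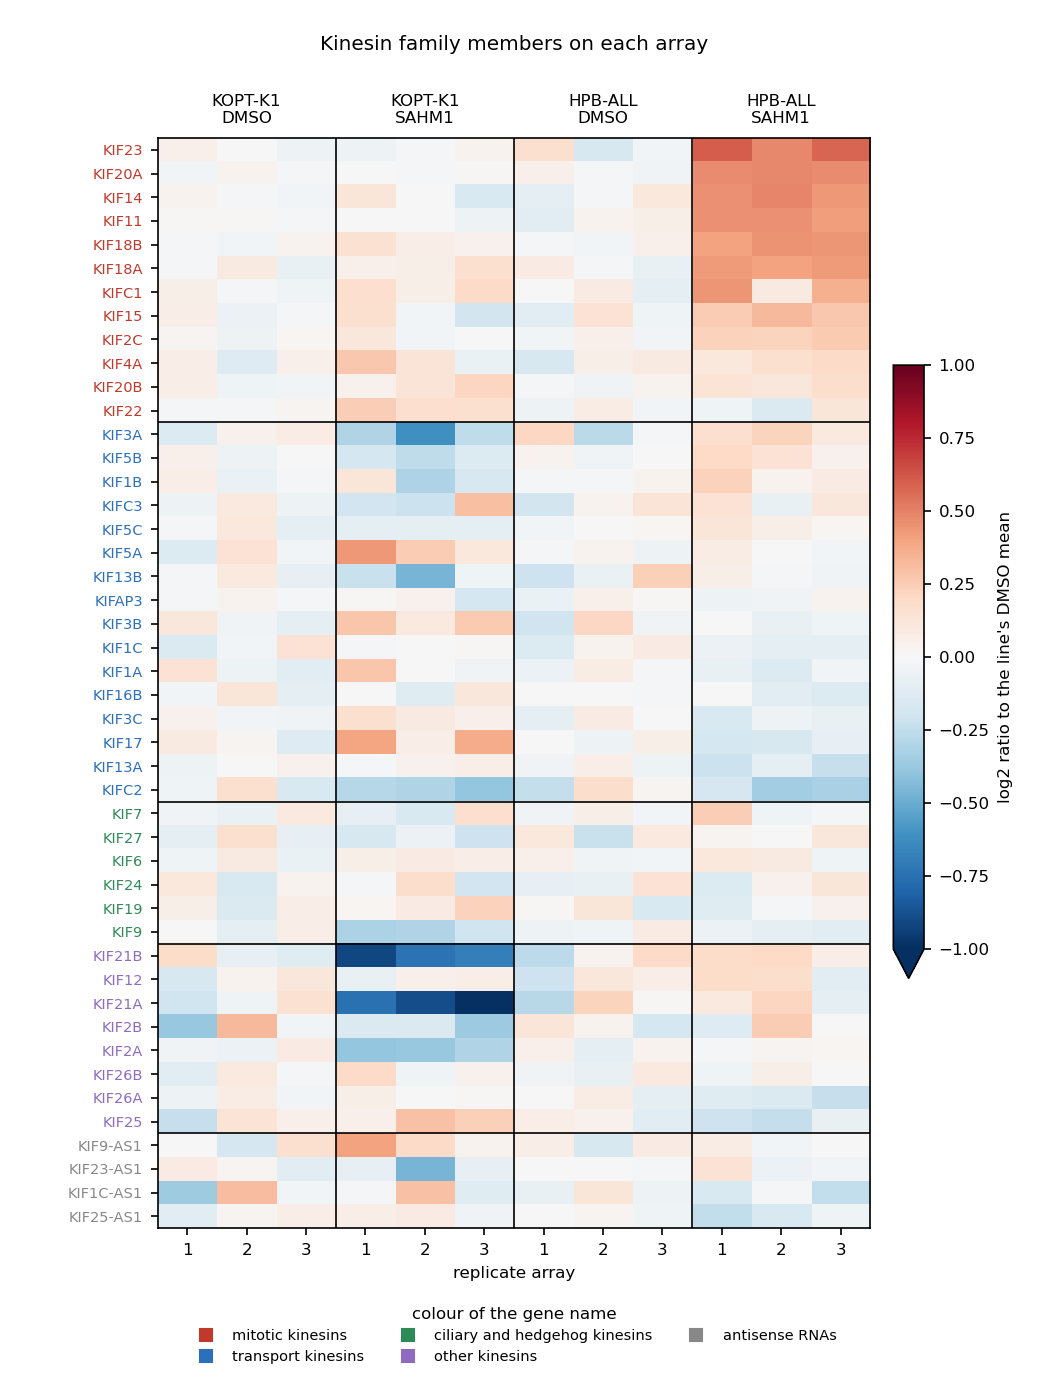
Each cell is the log2 ratio of 1 gene (row) to its line's DMSO mean on 1 array (column), with rows grouped by class and columns by group. The HPB-ALL SAHM1 arrays are red across the upper mitotic rows, and the KOPT-K1 SAHM1 arrays are blue at KIF21B, KIF21A and KIF2A.

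The start regions of the mitotic kinesins that rose are shown because most of them carry the same pair of cell cycle elements. The cell cycle genes homology region (CHR, TTTGAA or TTCGAA) is bound by LIN54 in the DREAM and MYBL2 complexes, and the CCAAT box is bound by NF-Y. RefSeq promoters (GRCh38.p14, 250 bases before to 50 after an annotated start) were found for 37 of 46 members and searched for these exact letters on both strands. The runs below span 120 bases before to 10 after the start, 5′ to 3′ on the gene's strand, with matches in capitals (ATTGG is CCAAT, and TTCAAA is TTTGAA, on the opposite strand).
KIF11, chr10:92593010-92593139, plus strand: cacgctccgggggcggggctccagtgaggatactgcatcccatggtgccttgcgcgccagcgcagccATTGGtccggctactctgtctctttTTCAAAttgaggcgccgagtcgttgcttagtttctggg
KIF14, chr1:200620742-200620871, minus strand: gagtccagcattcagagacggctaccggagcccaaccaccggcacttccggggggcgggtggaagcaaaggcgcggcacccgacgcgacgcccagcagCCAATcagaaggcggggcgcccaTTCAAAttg
KIF18A, chr11:28108147-28108276, minus strand: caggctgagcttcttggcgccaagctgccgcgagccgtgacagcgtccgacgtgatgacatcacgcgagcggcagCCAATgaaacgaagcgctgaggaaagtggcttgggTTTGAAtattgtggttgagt
KIF18B, chr17:44947764-44947893, minus strand: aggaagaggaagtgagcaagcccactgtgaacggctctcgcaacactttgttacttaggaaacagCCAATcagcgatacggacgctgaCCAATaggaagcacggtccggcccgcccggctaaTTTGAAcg
KIF20A, chr5:138178992-138179121, plus strand: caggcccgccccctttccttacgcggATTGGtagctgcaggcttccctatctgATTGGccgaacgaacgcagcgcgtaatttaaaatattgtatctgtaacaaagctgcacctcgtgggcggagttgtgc
KIF23, chr15:69414229-69414358, plus strand: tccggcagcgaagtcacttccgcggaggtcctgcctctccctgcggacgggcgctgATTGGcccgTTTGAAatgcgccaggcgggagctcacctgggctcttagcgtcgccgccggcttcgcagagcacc
KIF2C, chr1:44739717-44739846, plus strand: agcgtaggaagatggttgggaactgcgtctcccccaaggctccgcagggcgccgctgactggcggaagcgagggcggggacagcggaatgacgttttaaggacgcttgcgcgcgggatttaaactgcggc
KIF11, KIF14, KIF18A, KIF18B and KIF23 each hold a CHR match and at least 1 CCAAT match in these windows. KIF20A holds 2 CCAAT matches and no CHR match, and KIF2C holds neither, which says only that these letters are not in the window.

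Over the whole promoters, 10 of 12 mitotic kinesins (83.3%) held a CHR match, against 1 of 12 transport kinesins with a promoter (8.33%), 0 of 6 other kinesins, and 16.4% of the 35116 promoters in the table. Among ciliary and hedgehog kinesins it was 1 of 4 (25.0%), KIF24, which also held CCAAT matches and had its CHR match near the start. A gene counted when any of its promoters held a match, while the shares of all promoters count single promoters. By form, 15.2% of all promoters held TTTGAA and 1.45% held TTCGAA, and the only mitotic kinesin with the second form was KIF22. CCAAT matches were found in 10 of 12 mitotic kinesins and in 4 of 12 transport kinesins (33.3%), near the 34.6% of all promoters. Both elements were present in 9 of 12 mitotic kinesins (75.0%) and in 6.38% of all promoters. The CHR match lay within 60 bases of the start in 10 mitotic kinesins and in 0 transport kinesins, beside 5.44% of all promoters, a distance chosen after the positions were seen. The first base of the match was at -28 in KIF11, at -55 in KIF23 and at 5 in KIFC1, counted from 1 at the start with no position 0. CHR matches were found among both called and uncalled mitotic kinesins of HPB-ALL. KIF4A, KIF15, KIF20B, KIF22 and KIFC1, none called there, all hold a CHR match. KIF20A and KIF2C, both called higher, hold neither TTTGAA nor TTCGAA, and no other form of the CHR was searched. The part of these elements in the responses was not tested.

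**Figure D2:**
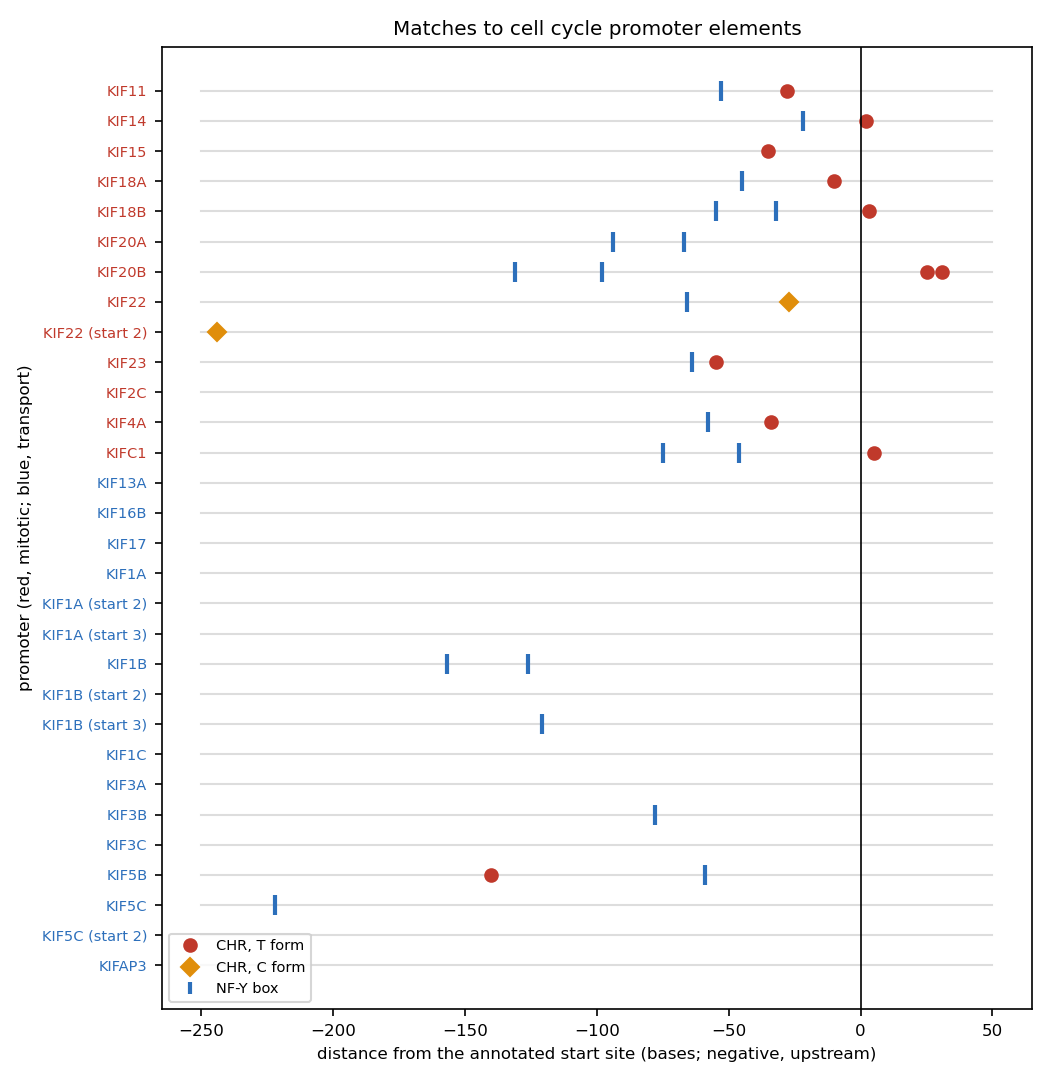
Each line is 1 RefSeq promoter of a mitotic (red names) or transport kinesin (blue names), with the distance from the annotated start in bases on the x axis; circles and diamonds are CHR matches (TTTGAA and TTCGAA) and bars are CCAAT matches (labelled NF-Y box). CHR matches lie near the start in 10 of 12 mitotic kinesins, and the 1 transport kinesin with a match, KIF5B, has it farther upstream.

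Among motors of spindle assembly, KIF11 is the kinesin-5 that slides antiparallel microtubules apart to make the spindle bipolar. In HPB-ALL it read 0.45, 0.46 and 0.42 on the SAHM1 arrays against -0.10, 0.04 and 0.06 on the DMSO arrays, so the groups lay well apart. Its response was 0.45 ± 0.06 (1.36-fold higher, adjusted p = 7.07e-04). In KOPT-K1 the SAHM1 arrays read 0.0034, 0.01 and -0.05 against 0.01, 0.01 and -0.02, overlapping, with a response of -0.01 ± 0.06 (adjusted p = 0.892). KIF18A and KIF18B are kinesin-8 motors: the first damps microtubule growth at kinetochores so that chromosomes align, and the second acts on astral microtubules. HPB-ALL SAHM1 arrays read 0.42, 0.40 and 0.43 for KIF18A against 0.09, -0.01 and -0.08 in DMSO (0.42 ± 0.07, adjusted p = 0.00201). KIF18B read 0.41, 0.45 and 0.44 against -0.02, -0.03 and 0.05 (0.43 ± 0.06, adjusted p = 6.65e-04). For both, no DMSO array reached any SAHM1 array. In KOPT-K1 KIF18A read 0.05, 0.06 and 0.16 on the SAHM1 arrays against -0.02, 0.09 and -0.08 in DMSO (0.09 ± 0.07, adjusted p = 0.351). KIF18B read 0.15, 0.07 and 0.04 against -0.01, -0.03 and 0.04 there (0.09 ± 0.06, adjusted p = 0.299). The KIF18A groups overlapped there, and the lowest KIF18B SAHM1 array lay just above the highest DMSO array. KIF2C is a kinesin-13 that takes microtubules apart at centromeres and so frees wrong attachments. It read 0.23, 0.22 and 0.26 against -0.02, 0.05 and -0.03 in HPB-ALL, a smaller step than that of the other six, and 0.11, -0.03 and 0.0033 against 0.03, -0.05 and 0.02 in KOPT-K1. Its HPB-ALL response was 0.24 ± 0.06 (1.18-fold higher, adjusted p = 0.0225), and 1 of its 2 probe sets was called. That call was lost without HPB-ALL DMSO array 1 or 3 or without any 1 of the HPB-ALL SAHM1 arrays (5 of 12 arrays left out in turn, adjusted p up to 0.0842).

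The motors of the central spindle and cytokinesis that rose were KIF23, KIF20A and KIF14. KIF23 forms the centralspindlin complex with RACGAP1, which marks where the cleavage furrow forms. It read 0.61, 0.48 and 0.58 on the HPB-ALL SAHM1 arrays against 0.16, -0.16 and -0.02 in DMSO, the highest SAHM1 mean of the class and also the widest DMSO spread among those that rose. Its response was 0.56 ± 0.08 (1.48-fold higher, adjusted p = 0.00101), and both of its probe sets were called higher. In KOPT-K1 it read -0.05, -0.02 and 0.03 against 0.05, 0.0025 and -0.05 (-0.01 ± 0.08), but this mean hid probe sets that disagreed: 1 was called lower at -0.31 and the other read 0.29 and was not called. KIF20A carries the chromosomal passenger complex, which holds Aurora B kinase, from chromosomes to the central spindle. Its HPB-ALL SAHM1 arrays read 0.47, 0.48 and 0.47, the tightest of the class, against 0.05, -0.02 and -0.03 in DMSO. The response of 0.48 ± 0.05 (1.39-fold higher) had the smallest adjusted p of all members in that line, 2.39e-04. In KOPT-K1 KIF20A read -0.00054, -0.01 and 0.01 against -0.03, 0.03 and -0.01, with a response of -0.00044 ± 0.05 (adjusted p = 0.997). KIF14 binds PRC1 and citron kinase at the midbody and is needed for the final cut between daughter cells. HPB-ALL SAHM1 arrays read 0.46, 0.49 and 0.43 against -0.09, -0.02 and 0.10 (0.46 ± 0.08, adjusted p = 0.00250), with both probe sets called. On the KOPT-K1 SAHM1 arrays KIF14 read 0.12, 0.0015 and -0.16 against 0.03, -0.01 and -0.03 in DMSO, with values on either side of 0 in both groups (-0.01 ± 0.08, adjusted p = 0.941).

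The 5 mitotic kinesins not called in HPB-ALL are named here after their values were seen. KIFC1, a minus-end kinesin-14 that clusters centrosomes, read 0.44, 0.09 and 0.35 on the SAHM1 arrays, with array 2 close to the DMSO range (0.30 ± 0.09, adjusted p = 0.0518). KIF15, the kinesin-12 that can stand in for KIF11, had a response of 0.28 ± 0.09 (adjusted p = 0.0683). KIF20B, a cytokinesis motor, and KIF4A, a chromokinesin that works with PRC1, had responses of 0.15 ± 0.06 and 0.16 ± 0.09. In each of these 4 genes, as in the 7 that rose, every HPB-ALL SAHM1 array was above every DMSO array, which gives 11 of 12 mitotic kinesins where 13.4% of all genes had that order. In KOPT-K1 2 of 12 had it, beside 13.5% of all genes. The exception was KIF22, a chromokinesin, which read -0.04, -0.15 and 0.12 in HPB-ALL (-0.02 ± 0.07) and had the highest KOPT-K1 response of the class, 0.19 ± 0.07 (adjusted p = 0.0787). The median over the 12 genes was 0.41, 0.36 and 0.39 on the HPB-ALL SAHM1 arrays, -0.02, 0.01 and -0.02 on the HPB-ALL DMSO arrays, and 0.11, 0.03 and 0.02 on the KOPT-K1 SAHM1 arrays. All 3 HPB-ALL cultures therefore showed the step, and it did not rest on 1 array. By single probe sets, 9 of 18 mitotic sets rose and 0 fell in HPB-ALL, where 3.09% of all 54675 sets rose and 2.06% fell, and in KOPT-K1 0 rose and 1 fell, where 4.77% rose and 9.79% fell.

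**Figure D3:**
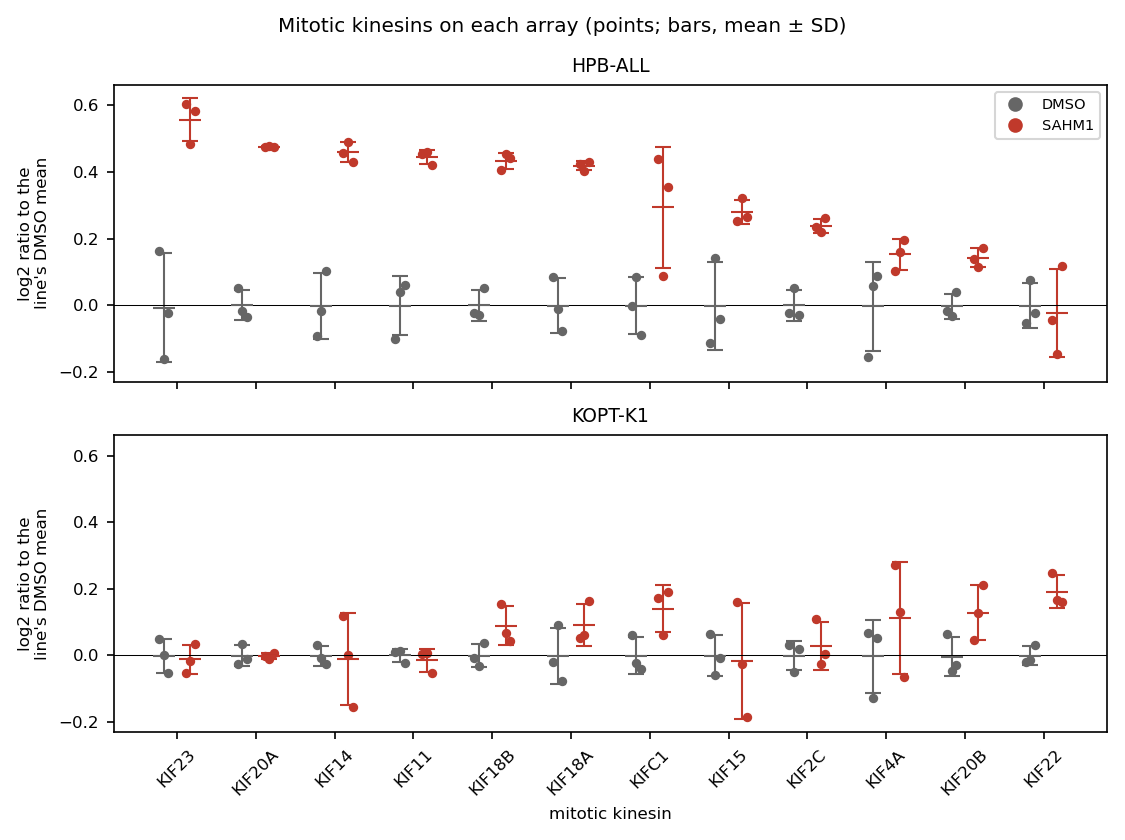
Points are the 3 arrays of each group and bars the mean ± SD, as log2 ratio to the line's DMSO mean, with HPB-ALL above and KOPT-K1 below on the same scale. In HPB-ALL the SAHM1 points of 11 of 12 mitotic kinesins lie above all DMSO points, with KIF22 the exception, while in KOPT-K1 they overlap for 10 of 12.

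Control readings also differed between the HPB-ALL groups. The 18S ribosomal RNA control probe sets read 1.73, 1.89 and 1.35 on the SAHM1 arrays and 1.05, -1.01 and -1.65 on the DMSO arrays, a mean difference of 2.19, against -0.26 in KOPT-K1. The mitotic kinesin medians of these 3 DMSO arrays were -0.02, 0.01 and -0.02 in the same order. Being ratios to the mean of the same arrays, they average near 0 whatever the 18S level. Every HPB-ALL SAHM1 array read higher for 18S than every DMSO array, so 18S level and treatment could not be fully told apart. The 5′ minus 3′ reading of the ACTB control probe sets, a sign of RNA integrity, was lower on the SAHM1 arrays in both lines without overlap: -0.41 to -0.09 against -0.03 to 0.05 in HPB-ALL, and -0.22 to -0.09 against -0.0091 to 0.01 in KOPT-K1. Its part in the responses was not tested. With the 18S level of each array as a covariate, the median mitotic response was 0.38 and the median standard error rose from 0.07 to 0.11. The number called then went from 7 to 1 (KIF11, 0.57 ± 0.09, adjusted p = 0.0270), in a fit where 0.157% of all genes were called higher. KIF20A had a response of 0.41 ± 0.09 (adjusted p = 0.103) and KIF23 of 0.39 ± 0.12 (adjusted p = 0.289) in that fit. After quantile normalization 3 mitotic kinesins were called, KIF11, KIF18B and KIF20A, where 90 of 19775 genes were called higher.

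**Figure D4:**
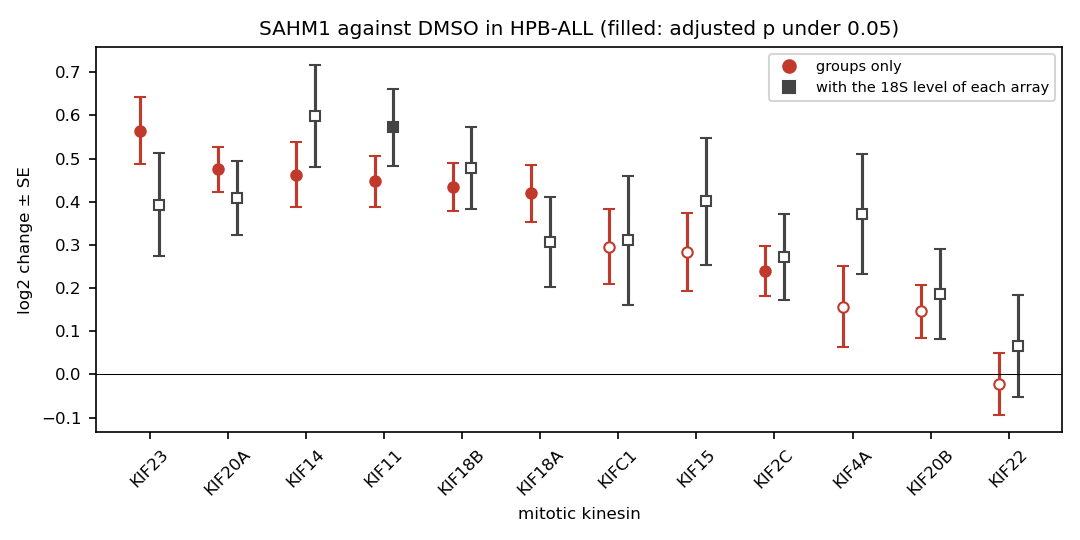
Log2 response ± SE of each mitotic kinesin to SAHM1 in HPB-ALL, from the fit on groups alone (circles) and with each array's 18S level added (squares), filled where the adjusted p is under 0.05. The estimates stay above 0 for 11 and 12 of 12 genes, the error bars are wider with 18S, and KIF11 alone is filled in both.

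The difference between the lines, tested as the response in HPB-ALL less that in KOPT-K1, was called higher for 6 mitotic kinesins and lower for 0, where 11.4% of all genes were called higher and 5.41% lower. The median difference of the class was 0.31, beside -0.03 for all genes. KIF23 differed by 0.58 ± 0.11 (adjusted p = 0.00435). KIF20A differed by 0.48 ± 0.07 (adjusted p = 0.00134). KIF14 and KIF11 differed by 0.47 ± 0.11 (adjusted p = 0.00987) and 0.46 ± 0.08 (adjusted p = 0.00294). By single probe sets, 1 of 2 was called for KIF14, at 0.68 (adjusted p = 0.0189) beside 0.26 (adjusted p = 0.129). The same held for KIF23, at 0.70 (adjusted p = 0.00335) beside 0.46 (adjusted p = 0.0633). KIF18B at 0.34 ± 0.08 (adjusted p = 0.0115) and KIF18A at 0.33 ± 0.09 (adjusted p = 0.0307) completed the 6. The KIF18A call was lost with 9 of 12 arrays left out in turn (adjusted p up to 0.0758) and with the 18S covariate (0.20 ± 0.13, adjusted p = 0.487). It was also lost in the fit by single probe sets (limma, adjusted p = 0.0754). KIF2C rose in HPB-ALL, but its difference between lines, 0.21 ± 0.08, was not called (adjusted p = 0.103). The count was 1 with the 18S covariate (KIF11) and 0 after quantile normalization, where 279 and 105 of 19775 genes were called higher. Averaged over both lines, 7 mitotic kinesins were called higher, where 3.16% of all genes were, with KIFC1 (0.22 ± 0.06, adjusted p = 0.0378) in place of KIF2C. No mitotic kinesin was called in KOPT-K1, so a call in this mean need not be a change in both lines. With the 18S covariate 4 were called in that mean, KIF11, KIF14, KIF18B and KIF20A, and KIFC1 was not (0.23 ± 0.08, adjusted p = 0.176). In that fit 169 of 19775 genes were called higher in the mean.

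**Figure D5:**
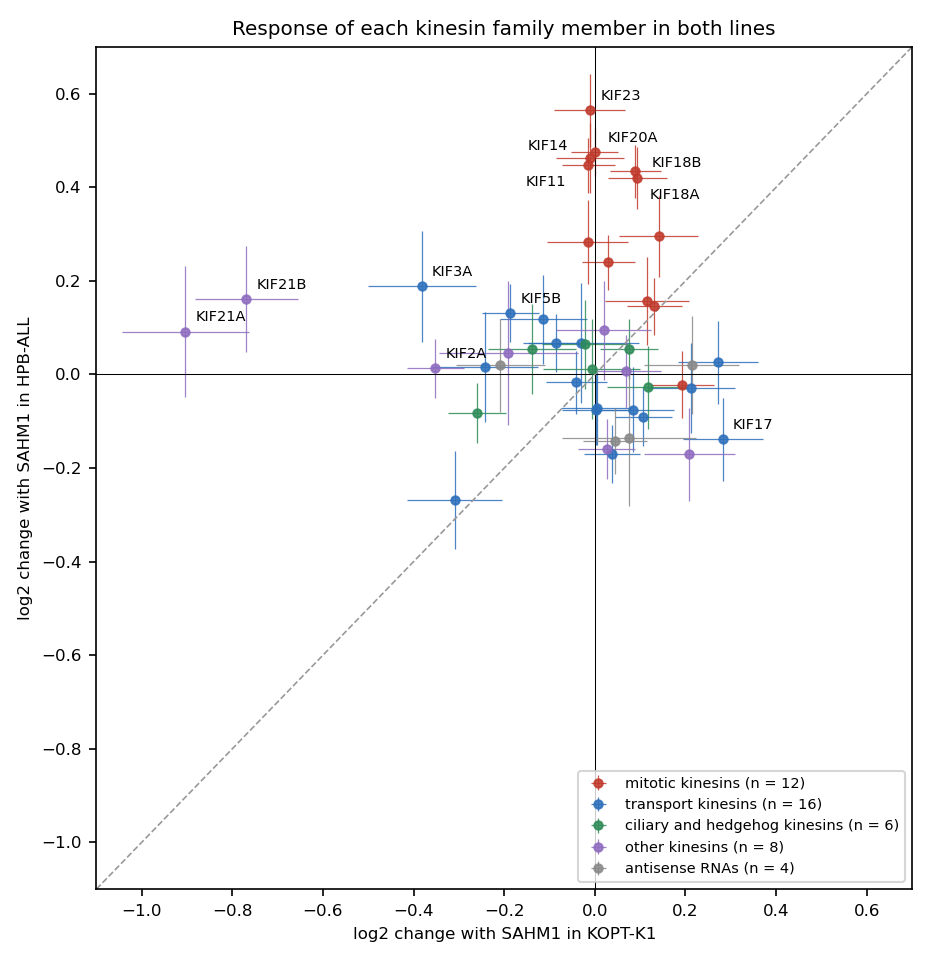
Each point is 1 kinesin family gene, with its log2 response ± SE in KOPT-K1 on the x axis and in HPB-ALL on the y axis, and the dashed line marks equal responses. Mitotic kinesins sit near 0 on the x axis and up to 0.56 on the y axis, and KIF21A, KIF21B and KIF2A sit to the left with HPB-ALL responses of 0.01 to 0.16. Genes named are those whose difference between lines was called.

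Partners of these motors were read from a list of 24 spindle and cytokinesis genes, 23 of them measured. In HPB-ALL 15 of 23 rose and 0 fell, where 4.96% of all genes rose and 4.38% fell, with a median response of 0.36, and in KOPT-K1 1 rose and 1 fell, where 5.85% rose and 13.2% fell. HMMR, a spindle pole protein, rose by 0.79 ± 0.06 (adjusted p = 1.43e-05). CENPE, a kinetochore motor of the kinesin-7 group whose symbol falls outside the naming rule, rose by 0.69 ± 0.08 in HPB-ALL (adjusted p = 2.65e-04) and had a response of -0.10 ± 0.08 in KOPT-K1. NUSAP1, which bundles spindle microtubules, rose by 0.52 ± 0.07 (adjusted p = 5.78e-04). BIRC5, the survivin subunit of the chromosomal passenger complex that KIF20A carries, rose in both lines, by 0.45 ± 0.06 in HPB-ALL and by 0.18 ± 0.06 in KOPT-K1 (adjusted p = 5.77e-04 and 0.0492). With the 18S covariate 1 of the 23, HMMR, was called in HPB-ALL. Of 15 listed regulators of G2/M transcription, 2 rose and 1 fell in HPB-ALL, where 9.34% of all genes were called in either direction, and 0 rose and 2 fell in KOPT-K1, where 19.0% were. LIN54, the DREAM subunit that binds the CHR, rose by 0.41 ± 0.11 in HPB-ALL (adjusted p = 0.0280) and its KOPT-K1 response was -0.08 ± 0.11. The NF-Y subunit NFYB rose by 0.27 ± 0.06 in HPB-ALL (adjusted p = 0.0169), and NFYC, another subunit, fell in KOPT-K1 (-0.34 ± 0.07, adjusted p = 0.00418). RBL1, a pocket protein of DREAM, fell in KOPT-K1 (-0.28 ± 0.09, adjusted p = 0.0378). E2F1, an activator of cell cycle genes named after its value was seen, fell in HPB-ALL (-0.27 ± 0.08, adjusted p = 0.0436). With the 18S covariate 0 of the 15 were called in HPB-ALL, where LIN54 read 0.31 ± 0.18, NFYB 0.21 ± 0.10 and E2F1 -0.09 ± 0.11, and NFYC and RBL1 were still called lower in KOPT-K1.

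The largest responses of the family were falls in KOPT-K1 among the other kinesins. Of these 8 genes 3 fell and 0 rose, where 13.2% of all genes were called lower and 5.85% higher. Those 3 had every SAHM1 array below every DMSO array, an order that 21.6% of all genes showed in that line. KIF21A and KIF21B are kinesin-4 motors that pause microtubule growth, and KIF21B is known in T cells for keeping microtubules short at the immune synapse. KIF21A read -0.75, -0.89 and -1.17 on the KOPT-K1 SAHM1 arrays against -0.20, -0.04 and 0.15 in DMSO, and 0.10, 0.22 and -0.10 against -0.28, 0.22 and 0.01 in HPB-ALL. The KOPT-K1 groups lay far apart and the HPB-ALL groups overlapped. Its response was -0.90 ± 0.14 in KOPT-K1 (1.87-fold lower, adjusted p = 0.00110, both probe sets called) and 0.09 ± 0.14 in HPB-ALL (adjusted p = 0.782). KIF21B read -0.91, -0.74 and -0.68 against 0.18, -0.08 and -0.12 in KOPT-K1, and 0.18, 0.20 and 0.07 against -0.26, 0.04 and 0.19 in HPB-ALL. All 3 treated KOPT-K1 cultures were low, with a response of -0.77 ± 0.11 (1.70-fold lower, adjusted p = 8.17e-04), and the HPB-ALL response was 0.16 ± 0.11 (adjusted p = 0.468). The difference between lines was 1.00 ± 0.20 for KIF21A (adjusted p = 0.00528) and 0.93 ± 0.16 for KIF21B (adjusted p = 0.00236). Neither probe set of KIF21A was called alone for that difference (limma, 1.15 and 0.84, adjusted p = 0.0532 and 0.0540). KIF2A, a kinesin-13 that takes microtubules apart at spindle poles and in interphase, read -0.39, -0.38 and -0.30 against -0.04, -0.06 and 0.08 in KOPT-K1 and -0.01, 0.02 and 0.02 against 0.05, -0.09 and 0.04 in HPB-ALL. It fell in KOPT-K1 (-0.35 ± 0.06, 1.28-fold lower, adjusted p = 0.00251), both probe sets were called, and the lines differed by 0.37 ± 0.09 (adjusted p = 0.0149). Neither set of KIF2A was called alone for that difference (limma, adjusted p = 0.0637 and 0.0681). Its paralog KIF2C had responses of 0.03 ± 0.06 in KOPT-K1 and 0.24 ± 0.06 in HPB-ALL.

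The hybridization spike controls read 0.83 higher on the KOPT-K1 SAHM1 arrays than on the DMSO arrays, and -0.39 in HPB-ALL. With 18S and spike levels both as covariates, KIF21A and KIF21B were still called lower in KOPT-K1 and KIF2A was not (-0.27 ± 0.09, adjusted p = 0.131). With 18S alone, KIF21B kept its called difference between lines (1.30 ± 0.19, adjusted p = 0.00566), and those of KIF21A (1.25 ± 0.28, adjusted p = 0.0509) and KIF2A (0.30 ± 0.13, adjusted p = 0.274) were not called. After quantile normalization 0 of the 3 were called, where 83 of 19775 genes were called lower in KOPT-K1 and 105 higher in the difference. The promoters of KIF21A and KIF2A are shown beside those of the mitotic set, and neither holds a CHR or CCAAT match. Of all promoters 16.4% held a CHR match, 34.6% a CCAAT match and 6.38% both, so the lack of each is common. The table gave no promoter for KIF21B.
KIF21A, chr12:39443111-39443240, minus strand: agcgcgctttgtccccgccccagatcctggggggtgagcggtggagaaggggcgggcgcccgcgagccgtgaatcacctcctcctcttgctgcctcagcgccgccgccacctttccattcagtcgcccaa
KIF2A, chr5:62306086-62306215, plus strand: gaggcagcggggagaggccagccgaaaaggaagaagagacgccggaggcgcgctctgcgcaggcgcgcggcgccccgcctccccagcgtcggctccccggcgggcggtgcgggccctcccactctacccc
The other 5 genes of the class, KIF2B, KIF12, KIF25, KIF26A and KIF26B, had responses between -0.19 and 0.21 in KOPT-K1 and between -0.17 and 0.09 in HPB-ALL, and none was called.

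Among 16 transport kinesins, 2 rose and 1 fell in KOPT-K1, a share near the 19.0% of all genes called there. In HPB-ALL 0 of 16 were called, where 9.34% of all genes were, and the class medians were -0.01 and -0.02. In HPB-ALL 3 of 16 had all SAHM1 arrays above the DMSO arrays and 2 had them all below, close to the 13.4% and 15.7% of all genes. Kinesin-1, the main carrier of vesicles and mitochondria, is built on heavy chains KIF5A, KIF5B and KIF5C. KIF5B, the form found in most tissues, read -0.17, -0.25 and -0.14 on the KOPT-K1 SAHM1 arrays against 0.05, -0.05 and -0.01 in DMSO, and 0.20, 0.14 and 0.05 against 0.03, -0.04 and -0.000051 in HPB-ALL. Groups did not overlap in either line but lay in opposite orders. Neither response was called (-0.19 ± 0.06, adjusted p = 0.0531, and 0.13 ± 0.06, adjusted p = 0.239), while the difference between lines was (0.32 ± 0.09, adjusted p = 0.0268). Without the less specific probe sets (suffix _x_at or _s_at) that difference was 0.14 and not called, and with the 18S covariate it was 0.27 ± 0.13 (adjusted p = 0.327). KIF5A, the neuronal form, read 0.44, 0.25 and 0.10 against -0.14, 0.14 and -0.02 in KOPT-K1, where the groups overlapped, and 0.08, 0.0043 and -0.03 against -0.02, 0.04 and -0.05 in HPB-ALL. It rose in KOPT-K1 by 0.27 ± 0.09 (adjusted p = 0.0497), none of its 3 probe sets was called alone, and its HPB-ALL response was 0.03 ± 0.09 (adjusted p = 0.912).

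Kinesin-2 is best known for carrying material toward the tip of cilia, as a KIF3A and KIF3B pair with KIFAP3 or as paired KIF17. KIF3A read -0.30, -0.61 and -0.25 on the KOPT-K1 SAHM1 arrays against -0.14, 0.05 and 0.07 in DMSO, and 0.17, 0.22 and 0.10 against 0.21, -0.27 and -0.01 in HPB-ALL. KOPT-K1 SAHM1 array 2 was lowest by far, and the HPB-ALL groups overlapped. It fell in KOPT-K1 (-0.38 ± 0.12, adjusted p = 0.0414), and the lines differed by 0.57 ± 0.17 (adjusted p = 0.0361). Its 2 probe sets disagreed on that difference (limma): 1.05 (adjusted p = 0.0234) and 0.09 (adjusted p = 0.782). In HPB-ALL they read 0.47 and -0.09. Neither was called alone in KOPT-K1 (-0.58 and -0.18, adjusted p = 0.0565 and 0.334). KIF17 read 0.40, 0.07 and 0.37 against 0.09, 0.02 and -0.13 in KOPT-K1, with array 2 inside the DMSO range, and -0.17, -0.16 and -0.08 against -0.01, -0.05 and 0.06 in HPB-ALL. It rose in KOPT-K1 by 0.28 ± 0.09 (adjusted p = 0.0419), the HPB-ALL response was -0.14 ± 0.09 (adjusted p = 0.412), and the difference was -0.42 ± 0.12 (adjusted p = 0.0367). In the fit by single probe sets neither that rise nor the difference was called (limma, adjusted p = 0.0706 and 0.0670). The partners KIF3B and KIFAP3 were not called in either line, nor was KIF3C. With the 18S covariate KIF3A's difference was 0.28 ± 0.22 (adjusted p = 0.588) and its HPB-ALL response turned from 0.19 to -0.07, and KIF17's difference was -0.34 ± 0.18 (adjusted p = 0.397). With arrays left out in turn, the called difference was lost in 8 of 12 settings for KIF3A and in 10 for KIF17. The 3 calls in KOPT-K1, of KIF5A, KIF3A and KIF17, were fragile: 0 were left when each line was fitted alone, and with arrays left out in turn KIF5A lost its call in 10 of 12 settings, KIF17 in 9 and KIF3A in 8. KIF5A kept its call only without KOPT-K1 DMSO array 2 or SAHM1 array 3, KIF17 only without KOPT-K1 DMSO array 1, HPB-ALL DMSO array 2 or KOPT-K1 SAHM1 array 2, and KIF3A only without KOPT-K1 DMSO array 1, HPB-ALL DMSO array 1 or 2, or KOPT-K1 SAHM1 array 3 (highest adjusted p 0.175, 0.143 and 0.151).

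The remaining transport motors were the kinesin-3 genes KIF1A, KIF1B, KIF1C, KIF13A, KIF13B and KIF16B, which carry vesicles and endosomes, and the minus-end motors KIFC2 and KIFC3. None was called in either line, with responses between -0.31 and 0.09 in KOPT-K1 and between -0.27 and 0.12 in HPB-ALL. KIF1B was the 1 member with probe sets called in opposite directions: in KOPT-K1 1 of its 4 sets rose by 0.62 and another fell by 0.54, so its gene mean of -0.11 ± 0.10 describes neither. KIFC2, named after its values were seen, was lower in both lines (-0.31 ± 0.10 and -0.27 ± 0.10), neither called, and fell in the mean of the lines (-0.29 ± 0.07, adjusted p = 0.0245). With the 18S covariate KIFC2 read -0.01 ± 0.15 in HPB-ALL and -0.34 ± 0.09 in KOPT-K1 (adjusted p = 0.997 and 0.0289), and the mean was not called (-0.18 ± 0.08, adjusted p = 0.321). By probe set, 3 of 40 transport sets rose and 2 fell in KOPT-K1, where 4.77% of all sets rose and 9.79% fell, and 0 were called in HPB-ALL.

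Proteins that link kinesin-1 and kinesin-3 to cargo fell in KOPT-K1 in 3 of 13 measured cases (of 15 listed), with 0 higher, where 13.2% of all genes fell, and 0 of 13 were called in HPB-ALL, where 9.34% of all genes were. TRAK2, the adaptor that ties kinesin-1 to mitochondria, had a response of -0.70 ± 0.09 in KOPT-K1 (adjusted p = 3.78e-04) and 0.23 ± 0.09 in HPB-ALL, and the lines differed by 0.93 ± 0.13 (adjusted p = 7.36e-04). That difference was not called with the 18S covariate (0.68 ± 0.17, adjusted p = 0.0661), while the KOPT-K1 fall was. RHOT1, its mitochondrial anchor, was called lower at -0.18 ± 0.06 (adjusted p = 0.0425), and KLC1, a kinesin light chain, at -0.26 ± 0.07 (adjusted p = 0.0255). Dynein and dynactin, which walk the opposite way on microtubules, gave 3 higher and 4 lower of 23 measured genes (of 24 listed) in KOPT-K1, where 5.85% of all genes rose and 13.2% fell, and 1 higher in HPB-ALL, where 4.96% rose. The dynein regulators PAFAH1B1 (-0.41 ± 0.06, adjusted p = 6.32e-04) and BICD1 (-0.47 ± 0.07, adjusted p = 8.57e-04) fell in KOPT-K1 and the dynactin subunit DCTN3 rose (0.41 ± 0.06, adjusted p = 0.00110). NDE1, a dynein regulator used in mitosis, fell in KOPT-K1 (-0.20 ± 0.06, adjusted p = 0.0343) and rose in HPB-ALL (0.31 ± 0.06, adjusted p = 0.00649), and the difference was 0.51 ± 0.08 (adjusted p = 0.00188). With the 18S covariate neither the HPB-ALL rise of NDE1 (0.34 ± 0.10, adjusted p = 0.295) nor its difference (0.54 ± 0.13, adjusted p = 0.0601) was called.

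Of the 6 ciliary and hedgehog kinesins (KIF6, KIF7, KIF9, KIF19, KIF24 and KIF27), KIF9 was called lower in KOPT-K1 and none was called in HPB-ALL. Over all genes 13.2% were called lower in KOPT-K1 and 9.34% in either direction in HPB-ALL. KIF9, a motor of motile cilia and sperm tails, read -0.31, -0.30 and -0.20 on the KOPT-K1 SAHM1 arrays against -0.0044, -0.09 and 0.07 in DMSO, and -0.06, -0.10 and -0.10 against -0.05, -0.04 and 0.08 in HPB-ALL. Treated arrays were below all DMSO arrays in both lines, by more in KOPT-K1 (-0.26 ± 0.06, adjusted p = 0.0143) than in HPB-ALL (-0.08 ± 0.06, adjusted p = 0.518), and the difference of 0.18 ± 0.09 was not called. That order of arrays was shown by 21.6% of all genes in KOPT-K1 and 15.7% in HPB-ALL. The call rested on probe sets of low specificity: 2 of 4 sets were called, at -0.42 and -0.50, both with the suffix _x_at, and without such sets the gene read 0.12 (adjusted p = 0.658). It was also lost without KOPT-K1 DMSO array 3 (adjusted p = 0.0578). KIF7, the hedgehog pathway kinesin of the cilium tip, had responses of -0.02 ± 0.10 and 0.06 ± 0.10. The 4 antisense RNAs, KIF1C-AS1, KIF9-AS1, KIF23-AS1 and KIF25-AS1, had 0 calls in either line, where 19.0% and 9.34% of all genes were called. KIF23-AS1, which lies opposite the KIF23 locus, had responses of -0.21 ± 0.10 in KOPT-K1 and 0.02 ± 0.10 in HPB-ALL.

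Across the family, 2 of 46 members rose and 5 fell in KOPT-K1, where 19.0% of all genes were called in either direction, and 7 rose and 0 fell in HPB-ALL, where 9.34% were. The difference between lines was called in 12 members, 11 higher in HPB-ALL and 1 lower, where 16.8% of all genes were called. In the mean of both lines 7 were called higher and 5 lower, where 8.13% of all genes were called lower and 11.3% in either direction. A call in this mean need not be a change in both lines. For instance, KIF20A, called higher, read -0.00044 in KOPT-K1, and KIF2A, called lower, read 0.01 in HPB-ALL. Among 9 T-lineage markers, 0 rose and 1 fell in KOPT-K1, the thymocyte antigen CD1A (-0.54 ± 0.06, adjusted p = 8.63e-05). In that line 5.85% of all genes rose and 13.2% fell. In HPB-ALL 3 of the 9 fell: the surface antigen CD7 (-0.51 ± 0.11, adjusted p = 0.0145), the kinase LCK (-0.22 ± 0.06, adjusted p = 0.0455) and the receptor chain CD247 (-0.27 ± 0.08, adjusted p = 0.0458), and the list median was -0.10. Over all genes 4.38% fell and 4.96% rose in HPB-ALL. CD3G, another T-cell receptor subunit, was called higher there (0.71 ± 0.18, adjusted p = 0.0300), but with the 18S covariate it read -0.02 ± 0.17 and 0 of the 9 were called in HPB-ALL. Of 10 measured B-cell, myeloid and erythroid markers (of 13 listed), 1 rose in KOPT-K1, the B-cell gene MS4A1 at 0.32 ± 0.07 (adjusted p = 0.00592), and 0 were called in HPB-ALL. Over all genes 5.85% were called higher in KOPT-K1 and 9.34% in either direction in HPB-ALL. The part of these markers in the kinesin responses was not tested.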

How the data were processed

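Total RNA of 12 cultures was read on 12 arrays in 4 groups of 3. The submitters' processing notes name RMA; its version is not given in the sources used here. Per the deposited values themselves, the unit is a linear ratio: each probe set's DMSO arrays of a line averaged 1 within 1e-06 in 54675 of 54675 probe sets. Log2 was taken without a pseudocount. Symbols came from the platform annotation (41097 probe sets with 1 symbol, 1801 with several, 11777 unlisted), and log2 values were averaged over the probe sets of each symbol. With levels lost, no filter on low values was possible.

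Responses were fitted with limma 3.58.1 (R 4.3.3; lmFit, eBayes) on all 12 arrays with 4 group terms and 8 residual degrees of freedom, adjusted by Benjamini-Hochberg over 19775 genes, and also per probe set. The script was tested on simulated data. Members, lists and the promoter motifs were chosen with earlier results of these data known, so no list was tested. Values in every array are given for members called in either line or in the difference, and for KIF11, KIF14, KIF20A, KIF23 and KIF2C; other lists give at most 4 genes by smallest adjusted p in either line, beside E2F1 and CD247, named to complete a count. Alternatives were the replicate block, quantile and median normalization, probe set choice, 18S and spike covariates, each line alone, robust eBayes, a threshold of 0.01, and each array left out. Promoters are from RefSeq (GRCh38.p14) and were not found for 9 members. Arrays have no read depth, and their number limits the precision: the median standard error of a response was 0.08.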

Additional observations from a re-analysis of the deposited data

Results flagged for a closer look

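A tested difference between the lines singled out 12 kinesins, given as the response in HPB-ALL less that in KOPT-K1, in log2 units (limma, adjusted p under 0.05). The mitotic kinesins were KIF23 at 0.58, KIF20A at 0.48, KIF14 at 0.47, KIF11 at 0.46, KIF18B at 0.34 and KIF18A at 0.33. The microtubule regulators that fell in KOPT-K1 were KIF21A at 1.00, KIF21B at 0.93 and KIF2A at 0.37. The transport kinesins were KIF3A at 0.57, KIF5B at 0.32 and KIF17 at -0.42, the last of which was higher in KOPT-K1. All 12 differences lost their call after quantile normalization, 10 of 12 with the 18S covariate (KIF11 and KIF21B kept theirs) and 11 of 12 with 18S and spike covariates, with none reversed. Over all genes 2253 differences were called higher and 1070 lower. These numbers were 105 and 22, 279 and 45, and 60 and 8 in the same order of settings. Groups of 3 arrays were not searched for single arrays far from the others.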

How the results depend on the processing

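Mitotic kinesins called higher in HPB-ALL numbered 7, and 3 after quantile normalization, 1 with the 18S covariate, 1 with 18S and spike covariates, and 6 to 8 with each array left out in turn. Of all 19775 genes 980 were called higher there, 90 after quantile normalization, 31 with 18S and 23 with both covariates. Mitotic kinesins called higher in the difference numbered 6, and 0, 1, 0 and 5 to 6 in the same order. Of all genes 2253 were called higher in the difference, 105 after quantile normalization, 279 with 18S and 60 with both covariates. In KOPT-K1 the mitotic count was 0 with any array left out. Transport kinesins called in KOPT-K1 numbered 3, and 0 under the replicate block, quantile normalization, 18S with spikes, each line alone or a threshold of 0.01, and 1 without _x_at and _s_at sets. With arrays left out they numbered 0 to 3: 0 without HPB-ALL DMSO array 3, any HPB-ALL SAHM1 array or KOPT-K1 SAHM1 array 1, and 1 without KOPT-K1 DMSO array 2 or 3 or SAHM1 array 2. In HPB-ALL they numbered 0 to 1, the 1 without DMSO array 1. Other kinesins called lower in KOPT-K1 numbered 3, 0 after quantile normalization, and 3 with any array left out. Of all genes 2605 were called lower in KOPT-K1, and 83 after quantile normalization. Quantile normalization forces equal spreads on all arrays. Their gene SD was 0.09 to 0.12 in DMSO and 0.20 to 0.27 with SAHM1. DMSO values are ratios to the mean of the same arrays, so their spread holds no response. The cause of the lost calls was not tested.

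The mitotic median in HPB-ALL was 0.36, and 0.29 after quantile normalization, 0.44 without _x_at and _s_at sets and 0.32 to 0.41 with arrays left out. In KOPT-K1 it was 0.06, and -0.0056 without those sets and 0.02 to 0.08 with arrays left out. The transport median in HPB-ALL was -0.02, and 0.049 with 18S, 0.044 with 18S and spikes and -0.077 to -0.0015 with arrays left out; in KOPT-K1 it was -0.01, and -0.052 to 0.018. KIF9 in KOPT-K1 reversed to 0.12 without the _x_at and _s_at sets. Of 26 called responses and differences of single kinesins, 23 lost their call after quantile normalization, 18 with 18S and 8 under the replicate block, with no other change of direction. Replicate numbers only name the cultures: same-numbered arrays correlated at -0.05 to 0.07 over 6 pairs, 3 DMSO arrays correlated best with their own number, and the block gave 6 mitotic calls in HPB-ALL and 5 in the difference. In single kinesins, KIF18A lost its difference between lines in 9 of 12 settings with an array left out, KIF17 in 10, KIF3A in 8 and KIF5B in 6. KIF18A kept it only without KOPT-K1 DMSO array 3, HPB-ALL DMSO array 1 or KOPT-K1 SAHM1 array 3, KIF17 only without KOPT-K1 DMSO array 1 or SAHM1 array 2, and KIF3A only without KOPT-K1 or HPB-ALL DMSO array 1 or KOPT-K1 SAHM1 array 1 or 3. KIF5B lost it without KOPT-K1 DMSO array 1 or SAHM1 array 2, HPB-ALL DMSO array 2 or 3, or HPB-ALL SAHM1 array 1 or 2.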
